A study of Mus musculus with 29 samples.

Results

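The protocadherins, the largest branch of the cadherin family of calcium-dependent cell adhesion proteins, were followed in sorted mouse neurons of the amygdala and the medial prefrontal cortex. Members were all genes whose mouse symbol begins with Pcdh. The annotation held 69 such symbols, of which 44 were measured among 9872 genes in the amygdala and 25 among 6080 genes in the prefrontal cortex. A total of 21 genes were measured in both regions, 23 in the amygdala alone, 4 in the cortex alone, and the other 21 were not analysed here. In the amygdala the members were 5 alpha, 12 beta, 18 gamma and 9 non-clustered genes, and in the cortex 1, 6, 11 and 7.

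All animals carried the Thy1-YFP transgene (B6.Cg-Tg(Thy1-YFP)HJrs/J mice), which puts a yellow fluorescent protein in a subset of projection neurons, and the cells were labelled as pyramidal neurons. They were sorted by flow cytometry after enzymatic dissociation of tissue punches. The study crossed 2 groups of mice, named Res-T and Sus-T, with the absence or presence of trauma. What the names stand for, what the trauma was, and the age and sex of the mice were not given in the sources used here. In the amygdala there were 3 Res-T and 2 Sus-T libraries without trauma and 4 Res-T and 4 Sus-T libraries with trauma. In the cortex there were 4 Res-T and 2 Sus-T libraries without trauma and 3 Res-T and 4 Sus-T libraries with trauma. The submitters removed 3 further libraries from their own testing (replicate 2 of Sus-T without trauma in both regions, replicate 2 of Res-T with trauma in the cortex), and these were not used here. The labels do not say if libraries share an animal, and the design text names 9 mice for the amygdala against 13 libraries used. The p-values therefore measure the spread between libraries, which may be partly technical.

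Clustered protocadherins lie in tandem alpha, beta and gamma arrays on 1 chromosome, each variable exon with its own promoter. A neuron switches on a small and partly random set of these promoters, with the help of the insulator protein CTCF and the cohesin ring, and the resulting proteins bind like to like across membranes and let a neuron tell its own branches from those of others. The C-type genes at the ends of the alpha and gamma arrays are switched on more uniformly. Non-clustered genes, mainly the delta-1 and delta-2 groups, are single genes in other places that act in axon guidance, cell sorting and synapse formation.

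Pcdh9 and Pcdh8 are shown by their upstream sequence because both passed the test in the same comparison in opposite directions. Pcdh9, a delta-1 gene, lies on chromosome 14 from 93013410 to 93890679 on the minus strand. Pcdh8, a delta-2 gene also known as arcadlin, lies on the same chromosome from 79766775 to 79771312 on the minus strand. The windows are the 250 bases before the RefSeq start site, written 5′ to 3′ on the gene's strand in build GRCm38.p6, at chr14:93890680-93890929 for Pcdh9 and chr14:79771313-79771562 for Pcdh8. Capitals mark the letters CGCT, the core of the sequence element known from clustered protocadherin promoters, or AGCG, the same letters on the other strand.
Pcdh9: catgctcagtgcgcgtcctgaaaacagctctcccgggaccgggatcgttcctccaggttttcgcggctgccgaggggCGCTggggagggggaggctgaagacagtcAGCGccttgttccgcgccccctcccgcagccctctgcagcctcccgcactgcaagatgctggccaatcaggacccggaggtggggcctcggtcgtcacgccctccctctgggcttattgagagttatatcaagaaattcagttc
Pcdh8: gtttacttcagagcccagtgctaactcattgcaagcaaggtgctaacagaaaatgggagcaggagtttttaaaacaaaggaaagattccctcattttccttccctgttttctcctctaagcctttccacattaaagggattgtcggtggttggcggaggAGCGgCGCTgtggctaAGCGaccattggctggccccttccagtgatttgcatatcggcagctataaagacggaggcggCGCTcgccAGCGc
The Pcdh9 window held 2 matches and the Pcdh8 window 5, with no overlap between matches. Of 32851 RefSeq windows of this length, 55.7% held at least 1 match, 34.1% at least 2 and 6.56% at least 5, with a median of 1. GC content was 63.6% upstream of Pcdh9 and 51.2% upstream of Pcdh8, against a median of 52.4% over all windows. The table held windows for 9 protocadherin genes, all non-clustered, and all 9 held a match. A match describes the letters and is not a binding site.

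In the annotation of build GRCm38.p6 the alpha genes span bases 36930184 to 37187661 of chromosome 18, the beta genes 37264938 to 37524479, and the gamma genes 37661793 to 37841873, all on the plus strand. Every beta gene is 1 exon block. Each alpha gene shares 2860 or 2864 bases of constant exons at its 3′ end with the other alpha genes, and each gamma gene shares at least 2116 bases with the other gamma genes. For the measured genes this was from 38.0% to 53.6% of an alpha gene's exon length and from 27.8% to 66.8% of a gamma gene's. A quantifier has to divide reads from these exons among the members, so the value of a single alpha or gamma gene is uncertain. Among the measured beta genes, Pcdhb22 shares 455 bases, or 6.885% of its exon length, with its neighbour Pcdhb21, and its value carries the same uncertainty over that stretch.

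The deposited values were a normalized signal in arbitrary units, and read depth is unknown. An amygdala library summed to between 3267967 and 4021272 units, a cortical one to between 2095138 and 2444486. Dimensions were counted after 1 was taken from each value, logs were taken and each gene was centred. On that scale the amygdala values lacked 1 dimension and the cortical values 2. The 3 amygdala libraries of Res-T without trauma had weights of 0.000 in the lost dimension, while the other 10 had weights from 0.007 to 0.273. Why these weights differed was not tested. With dimensions missing, the spread between libraries may be underestimated, although the count was not repeated on the log2(value + 1) scale of the fits. Few markers of the labelled cell type were measured. Of 8 pyramidal neuron markers, 3 were measured in the amygdala (Camk2a, Nrgn and Camk2n1) and 0 in the cortex, while 10 and 7 of 10 oligodendrocyte markers were measured and made up from 1.72% to 6.23% of an amygdala library's total and from 2.196% to 7.48% of a cortical one.

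The level of a gene is given per kilobase of annotated exon where genes are compared with each other. Pcdh9 had the highest level of the measured protocadherins in both regions, with 504.0 units per kilobase over the amygdala libraries (percentile 98.8 of all genes there) and 388.6 in the cortex (percentile 98.4), whose table may have been normalized separately. In the amygdala it was followed by Pcdhgc3, a C-type gamma gene, with 101.3 per kilobase, Pcdh10, a delta-2 gene, with 72.4, Pcdh17, another delta-2 gene, with 61.6, and Pcdh7, a delta-1 gene, with 59.0. The lowest in both regions was Pcdha11, an alpha gene, with 2.02 per kilobase in the amygdala (percentile 1.06) and 1.34 in the cortex (percentile 0.329). In the amygdala the median level per kilobase was 2.68 over the alpha genes, 7.25 over the beta genes, 22.7 over the gamma genes and 33.5 over the non-clustered genes, against 30.4 over all genes. In the cortex the single alpha gene stood at 1.34, the beta median was 5.21, the gamma median 16.6, the non-clustered median 16.1 and that of all genes 33.1. Per kilobase the class medians thus lay below that of all genes, except for the non-clustered genes of the amygdala. It is unknown if the deposited values already allow for gene length. Undivided, the non-clustered median lay above that of all genes in both regions, with 348.7 against 151.6 in the amygdala and 298.2 against 166.0 in the cortex. In the amygdala Pcdhgc3 (557.0) then stood below Pcdh10, Pcdh17 and Pcdh7, and Pcdhb3 (8.81) was lowest, below Pcdha11 (15.2).

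Libraries of a group differed more in the alpha and beta genes than in most other genes of either region, and in the amygdala the 15 gamma-A and gamma-B genes did not share this. The residual standard deviation on the log2 scale, after removing the 4 group means, had a median of 0.91 over the alpha genes of the amygdala, 0.70 over the beta genes, 0.41 over the gamma genes and 0.33 over the non-clustered genes, against 0.37 over all genes. In the cortex it was 1.202 for Pcdha11, 1.22 over the beta genes, 0.67 over the gamma genes, 0.45 over the non-clustered genes and 0.45 over all genes. Among the clustered genes it lay above the median of all genes in 24 of 35 in the amygdala and in 17 of 18 in the cortex. For the gamma-A and gamma-B genes of the amygdala the median was 0.36, and 7 of 15 lay above that of all genes. In the amygdala the classes with the larger spread were also those with the lower level, and the part of level in the spread was not tested.

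Single beta and alpha genes ranged widely among libraries labelled alike. Pcdhb17 was at 59.0, 3.49, 50.3 and 31.3 in the amygdala of Sus-T with trauma, and Pcdhb18 at 102.4, 3.86, 66.0 and 39.8 in the same libraries. Replicate 2 held the lowest value of all 13 libraries for both genes, and in that library Pcdhb6 and Pcdhb13 were at their highest, with 70.3 and 28.1. Of the 35 clustered genes of the amygdala this library held the highest or lowest value of 19, or 54.3%, against 23.4% of all genes. In the other amygdala libraries the share among clustered genes ran from 0% to 37.1%, and in the non-clustered genes this library held the extreme value of 1 of 9. In the cortex the highest share of clustered extremes was 38.9%, in replicate 2 of Res-T without trauma, against 30.3% of all genes in that library.

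**Figure D1:**
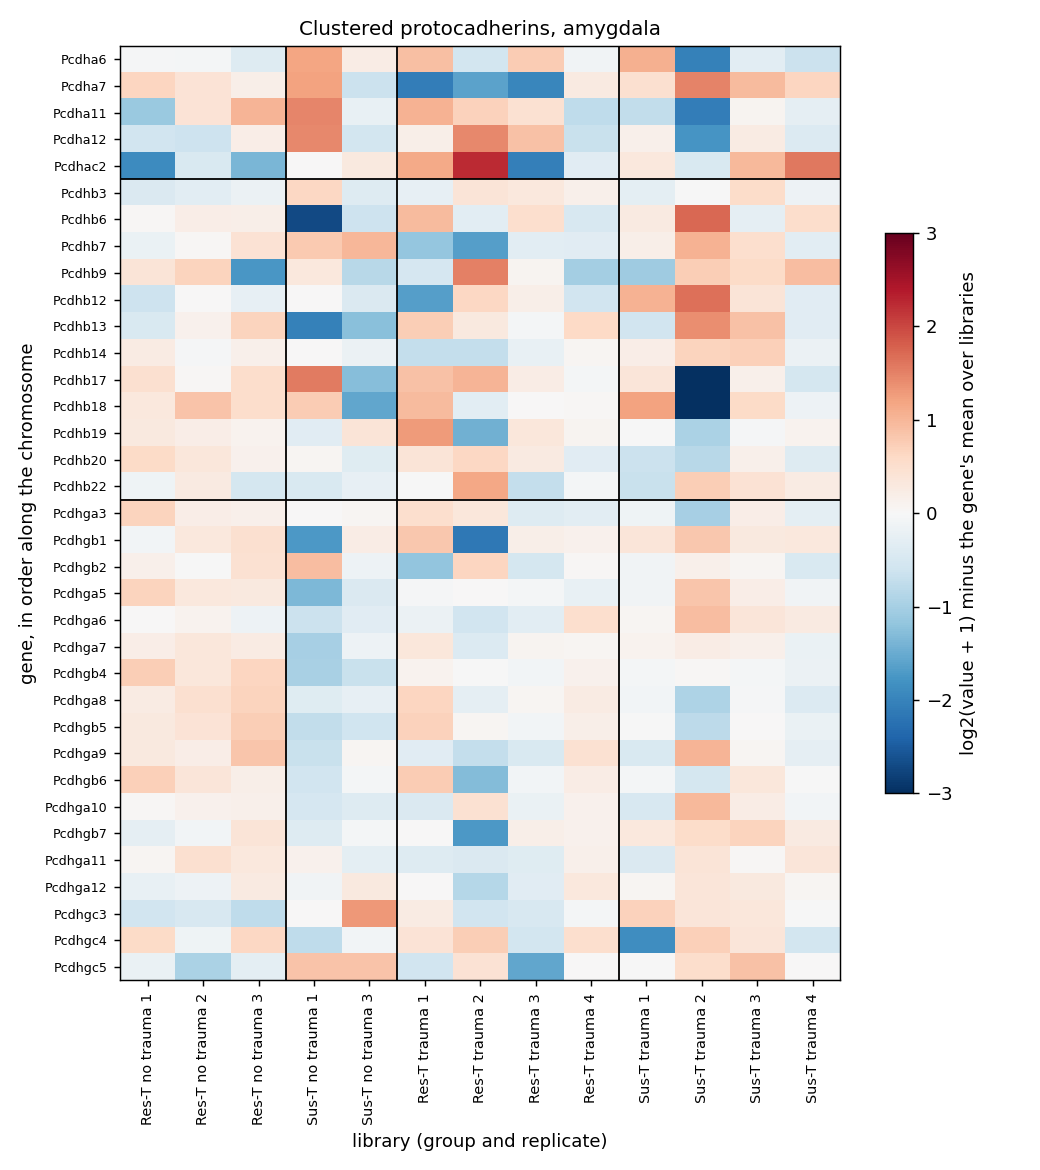
The 35 clustered protocadherins of the amygdala, in order along the chromosome from top to bottom, in 13 libraries from left to right. Colour gives log2(value + 1) minus the gene's mean over libraries, with the scale ending at 3 and -3, horizontal lines part alpha, beta and gamma genes, and vertical lines part the 4 groups. Replicate 2 of Sus-T with trauma shows dark cells in both directions among the alpha and beta genes, while the gamma genes above Pcdhgc3 are mostly red in Res-T without trauma and blue in Sus-T without trauma.

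In the amygdala of mice without trauma, Pcdh9 and 4 gamma-A and gamma-B genes were lower in Sus-T than in Res-T, and Pcdhgc3, Pcdhgc5, Pcdh8 and Pcdh1 were higher. With limma these 9 of 44 protocadherins passed the threshold (an adjusted p under 0.05), 4 higher and 5 lower in Sus-T, against 27.4% of all genes called in either direction, 12.4% higher and 15% lower. The members' share lay below that background. The groups did not overlap in 22 of 44 members, against 58.9% of all genes. After median-ratio scaling of the libraries 5 were higher and 4 lower, since Pcdh19 entered and Pcdhga7 left, against 27% of all genes called. After scaling to the library total 6 were higher and 4 lower, against 28% of all genes. That scaling moved the median log2 change of all genes by 0.19. Of all called genes 61.5% were then higher, against 45.2% in the main fit. The split rested on single Sus-T libraries. Without replicate 3 of Sus-T 0 were higher and 7 lower, against 18.7% of all genes called, and without replicate 1 of Sus-T 4 were higher and 2 lower, against 15.9%.

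Among the 15 gamma-A and gamma-B genes, whose variable exons make up most of the gamma array, 4 fell, none rose, and 13 had a negative log2 change under each scaling of the libraries that was run. The 4 calls were 26.7% of these genes, near the 27.4% of all genes called in either direction, with 15% of all genes lower. Their median change was -0.74, against -0.03 over all genes. Pcdhgb4 was at 139.0, 105.3 and 129.4 in the Res-T libraries and at 41.2 and 51.6 in the Sus-T libraries. Every Sus-T library lay below every Res-T library, and the gene fell 2.65-fold (log2 change -1.41 ± 0.29, limma adjusted p = 0.0016). Pcdhga5 was at 185.9, 145.3 and 143.3 in Res-T and at 45.4 and 86.7 in Sus-T, a fall of 2.48-fold (log2 -1.31 ± 0.33, adjusted p = 0.0076), and without replicate 1 of Sus-T its log2 change was -0.85 with an adjusted p of 0.16. Pcdhgb5 was at 164.0, 177.2 and 223.6 in Res-T and at 79.2 and 87.6 in Sus-T, a fall of 2.23-fold (log2 -1.15 ± 0.31, adjusted p = 0.0097), with an adjusted p of 0.074 without replicate 1 of Sus-T. The groups did not overlap in any of these 3 genes.

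Pcdhga7 was at 158.1, 174.1 and 161.2 in Res-T and at 68.1 and 123.2 in Sus-T, with a log2 change of -0.84 ± 0.30 and an adjusted p of 0.044. It kept the call in 1 of the 5 fits that left out 1 library, the fit without replicate 3 of Sus-T, and leaving out replicate 1 of Sus-T brought it to -0.41 with an adjusted p of 0.46. The other 11 gamma-A and gamma-B genes did not pass. They ranged from -0.99 for Pcdhgb1 to 0.18 for Pcdhgb2, and Pcdhga8, with -0.77 ± 0.32, came nearest to the threshold with an adjusted p of 0.086.

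Of the 3 C-type genes at the end of the gamma array, Pcdhgc3 and Pcdhgc5 rose and Pcdhgc4 did not pass, and both calls were lost without replicate 3 of Sus-T. Pcdhgc3 was at 343.8, 366.3 and 300.4 in Res-T and at 518.7 and 1263 in Sus-T. It rose 2.41-fold (log2 1.27 ± 0.32, adjusted p = 0.0071), but without replicate 3 of Sus-T, its highest library, the change was 0.63 with an adjusted p of 0.20. Pcdhgc5 was at 126.1, 74.9 and 118.5 in Res-T and at 263.6 and 264.0 in Sus-T, and it rose 2.53-fold (log2 1.34 ± 0.44, adjusted p = 0.033). That call was lost in 4 of the 5 fits that left out 1 library, and it was kept without replicate 1 of Res-T. Pcdhgc4, whose protein needs a partner protocadherin to reach the cell surface, did not pass, with -0.77 ± 0.61. Pcdhac2, the C-type gene of the alpha array, did not pass either, with 1.39 ± 0.93, although its 2 Sus-T libraries (19.7 and 24.1) lay above the 3 Res-T libraries (4.59, 13.9 and 6.91).

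As sums, the 15 gamma-A and gamma-B genes were at 2094, 2104 and 2301 units in Res-T and at 1361 and 1558 in Sus-T, while the 3 C-type gamma genes were at 545.5, 486.7 and 496.3 in Res-T and at 811.7 and 1574 in Sus-T. The C-type genes made up 20.7%, 18.8% and 17.7% of the summed gamma signal in Res-T and 37.4% and 50.3% in Sus-T. The sum over all 18 gamma genes overlapped between the groups, with 2639, 2590 and 2797 against 2173 and 3132. The C-type share separated the groups, and the total did not, in a comparison where 58.9% of all genes did not overlap. The share also depends on how reads from the shared gamma exons were divided, which was not tested.

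**Figure D2:**
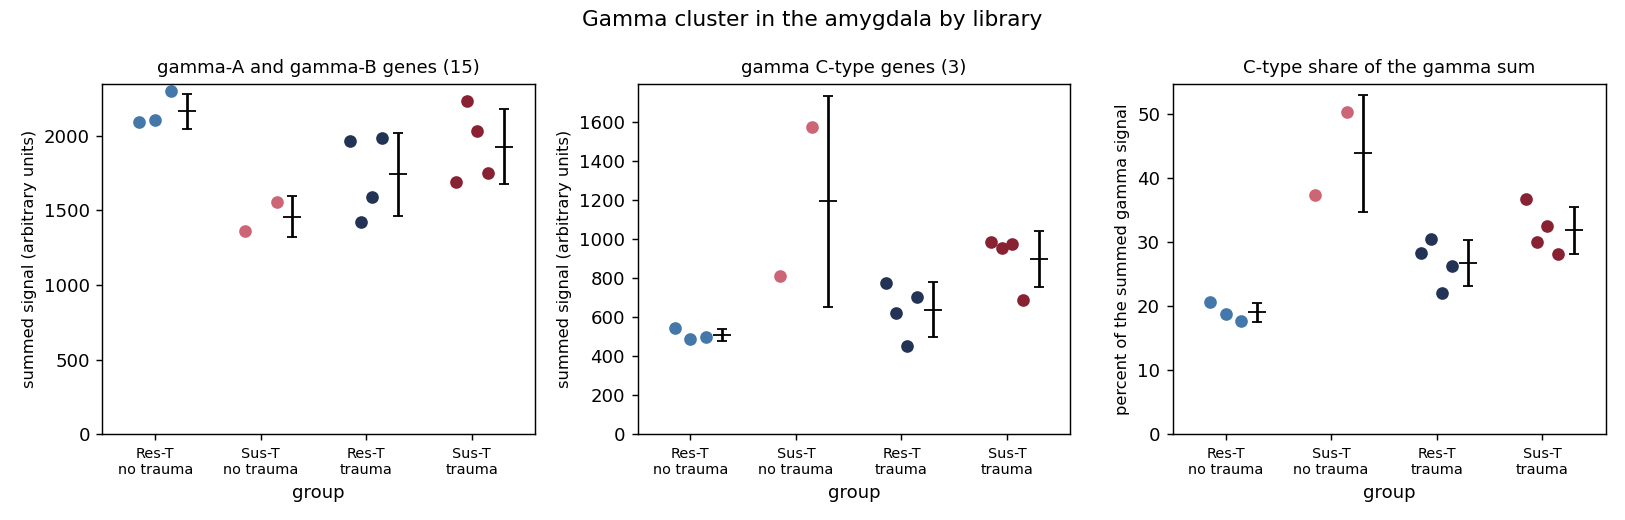
Summed signal of the gamma-A and gamma-B genes (left), of the C-type gamma genes (middle) and the C-type share of the summed gamma signal in percent (right) in the amygdala by group. Points are libraries, with the mean and standard deviation beside them; without trauma the C-type share was from 17.7% to 20.7% in Res-T and 37.4% and 50.3% in Sus-T, and the groups with trauma lay between.

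No alpha or beta gene passed. The 5 alpha genes had a median change of 0.78 and the 12 beta genes one of -0.21. The largest beta values were those of Pcdhb6 (-1.81 ± 0.69, adjusted p = 0.061), at 21.2, 24.0 and 23.7 in Res-T and at 2.29 and 13.1 in Sus-T, and of Pcdhb13 (-1.74 ± 0.67, adjusted p = 0.062), at 7.01, 11.04 and 16.4 in Res-T and at 1.71 and 3.64 in Sus-T. In both genes the groups did not overlap. The alpha genes had standard errors from 0.73 to 0.93, and the largest change among them, that of Pcdhac2, had an adjusted p of 0.29.

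Of the 9 non-clustered genes, 3 passed, or 33.3%, a share near the 27.4% of all genes called. Pcdh9 was at 5272, 5814 and 5961 in Res-T and at 1384 and 1847 in Sus-T. It fell 3.55-fold (log2 -1.83 ± 0.22, limma adjusted p = 2.6e-05), and it kept the call with each library left out in turn. Its share of the summed non-clustered signal was from 63.3% to 64.6% in Res-T and 32.0% and 29.0% in Sus-T. The summed non-clustered signal was 8322, 9004 and 9245 in Res-T and 4321 and 6378 in Sus-T, whereas the summed clustered signal overlapped, with 3125, 3116 and 3274 against 2804 and 3490.

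Pcdh8, a synaptic protocadherin induced by neuronal activity, was low in all libraries, at 17.9, 13.6 and 12.2 in Res-T and at 30.8 and 82.7 in Sus-T. It rose 3.35-fold (log2 1.75 ± 0.61, adjusted p = 0.040), and it lost the call in 4 of the 5 fits that left out 1 library, with a change of 1.05 and an adjusted p of 0.35 without replicate 3 of Sus-T. Pcdh1, a delta-1 gene that also acts in epithelial adhesion, was at 203.7, 170.1 and 264.2 in Res-T and at 359.9 and 492.7 in Sus-T, and it rose 2.01-fold (log2 1.01 ± 0.29, adjusted p = 0.014). It lost the call without replicate 2 of Res-T (adjusted p = 0.062) and without replicate 3 of Sus-T (adjusted p = 0.15).

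The other non-clustered genes did not pass. Pcdh19, a delta-2 gene on the X chromosome tied to an epilepsy of girls, was nearest with 0.83 ± 0.31 (adjusted p = 0.058) and values of 91.9, 115.3 and 119.2 against 211.4 and 175.2, which did not overlap. Pcdh10, which recruits the actin-regulating WAVE complex, had 0.56 ± 0.25 (adjusted p = 0.10). Pcdh7 had -0.08 ± 0.20, Pcdh11x, a delta-1 gene, 0.03 ± 0.32, Pcdh17, which gathers at synapses, -0.47 ± 0.27, and Pcdh18, a delta-2 gene at the low end with 3.53 units per kilobase, 0.52 ± 0.59.

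**Figure D3:**
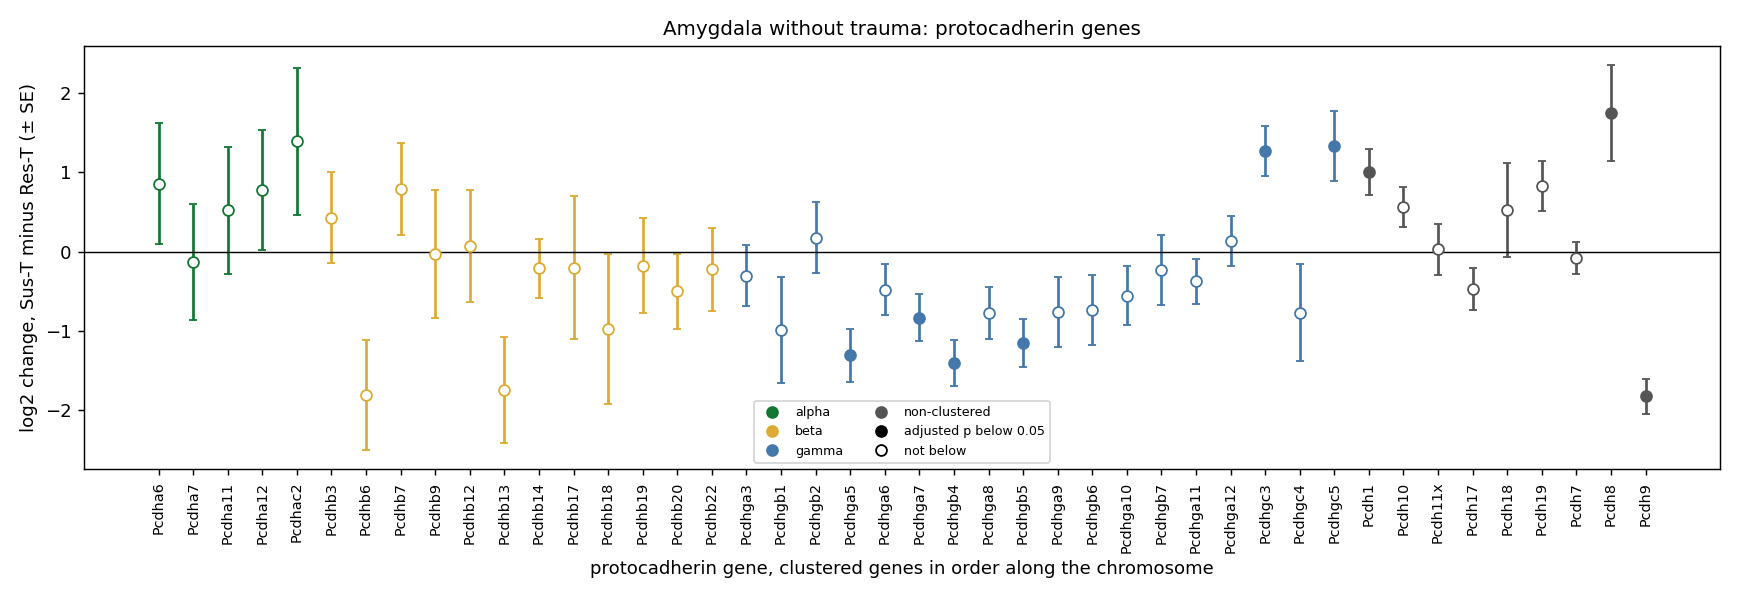
Log2 change, Sus-T minus Res-T without trauma, with its standard error, for the 44 protocadherins of the amygdala (3 and 2 libraries), clustered genes in order along the chromosome and then the non-clustered genes. Filled points had a limma adjusted p under 0.05; most gamma-A and gamma-B genes lie below 0, Pcdhgc3 and Pcdhgc5 above it, and Pcdh9 has the lowest value.

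Markers of other cells moved with these groups. All 10 oligodendrocyte markers were measured and 8 fell in Sus-T without trauma. The summed share of all 10 was 5.34%, 6.23% and 5.30% of the library total in Res-T and 1.72% and 2.53% in Sus-T. The 3 measured pyramidal markers rose, from between 0.00494% and 0.00768% of the total to 0.105% and 0.129%. So did 4 of 7 measured astrocyte markers and 3 of 3 measured microglial markers. The summed share of all 7 astrocyte markers went from between 0.263% and 0.429% to 0.951% and 1.75%. That of the 3 microglial markers went from between 0.00597% and 0.00934% to 0.0221% and 0.0273%. Of 3 measured oligodendrocyte precursor markers 1 rose and 1 fell, and of 5 endothelial and mural markers 1 rose and 1 fell. The 1 measured interneuron marker fell. Of all genes 12.4% were called higher and 15% lower. With the mean of the oligodendrocyte markers as a covariate, a fit added after seeing the data, no protocadherin passed here, and 39 of all genes did. In that fit Pcdh9 had a change of -1.34 with an adjusted p of 0.26 and Pcdhgc3 one of 3.19 with an adjusted p of 0.051. The marker share of every Sus-T library lay below that of every Res-T library, so marker content and group cannot be told apart here. In such bulk samples fewer cells of a type and less RNA per cell cannot be told apart either. The part of the pyramidal, astrocyte and microglial markers in the result was not tested.

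Trauma in Res-T mice came with a lower Pcdh9 in the amygdala. The 4 libraries with trauma were at 2874, 2805, 2991 and 3679, all below the 3 libraries without trauma (5272, 5814 and 5961), and the gene fell 1.85-fold (log2 -0.89 ± 0.18, limma adjusted p = 0.011). It was the only 1 of 44 protocadherins called, against 6.18% of all genes in either direction, 3.3% higher and 2.88% lower. The libraries did not overlap in 5 members, against 23.1% of all genes. The call was lost without replicate 2 or replicate 3 of Res-T without trauma (adjusted p = 0.053 and 0.054) and after quantile normalization (-0.53, adjusted p = 0.089). The oligodendrocyte share was from 4.01% to 5.06% with trauma and from 5.30% to 6.23% without, and none of the 10 markers passed. With the marker mean as a covariate Pcdh9 had -0.74 with an adjusted p of 0.073, while 5.11% of all genes were called.

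No clustered gene passed in this comparison. All 15 gamma-A and gamma-B genes had a negative change, from -0.71 for Pcdhga9 to -0.12 for Pcdhga10, with a median of -0.35 against -0.05 over all genes, but 13 of 15 were negative after scaling to the library total. Pcdhga11 was at 208.1, 275.8 and 249.4 without trauma and at 150.8, 147.5, 153.8 and 219.3 with trauma, a change of -0.55 ± 0.24 (adjusted p = 0.17). Pcdha7 had the lowest change of all members, -1.76 ± 0.61 (adjusted p = 0.092), with 17.8, 14.9 and 12.46 without trauma and 1.84, 2.94, 2.07 and 13.3 with trauma. Without that highest library, replicate 4 with trauma, Pcdha7 passed as well, and 7.17% of all genes did. Pcdh19 had 0.77 ± 0.26 (adjusted p = 0.086) and Pcdh8 1.10 ± 0.51 (adjusted p = 0.20).

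Between Sus-T mice with and without trauma no amygdala protocadherin passed, and limma called 0.0304% of all genes. At an unadjusted p under 0.05 there were 7 of 44 members and 1168 of all genes. The libraries did not overlap in 8 members, all higher with trauma, against 20.4% of all genes. Pcdh9 had the smallest p, with 1384 and 1847 without trauma and 2936, 3806, 2261 and 2811 with trauma (0.86 ± 0.20, adjusted p = 0.089). Pcdhb6 had 2.23 ± 0.65 (adjusted p = 0.14), with 2.29 and 13.1 without trauma and 25.3, 70.3, 17.0 and 30.1 with trauma, and Pcdhga5 had 1.09 ± 0.32 (adjusted p = 0.14). Without replicate 3 of Sus-T without trauma these 3 genes passed, against 2.91% of all genes in that fit. Of the gamma-A and gamma-B genes 12 of 15 had a positive change, with a median of 0.42 against -0.01 over all genes, and 11 of 15 after scaling to the library total.

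The trauma effect differed between Sus-T and Res-T in 3 of 44 protocadherins, a share near the 6.74% of all genes called, 4.76% with a positive and 1.98% with a negative difference. The difference of the log2 changes was 1.75 ± 0.27 for Pcdh9 (limma adjusted p = 0.0033), 1.59 ± 0.42 for Pcdhga5 (adjusted p = 0.033) and 1.30 ± 0.37 for Pcdhgb4 (adjusted p = 0.041). Both trauma effects and their difference use the same libraries, those without trauma included. Pcdh9 kept the call with each library left out in turn, whereas Pcdhga5 lost it in 8 of 13 such fits and Pcdhgb4 in 10. Pcdhga5 and Pcdhgb4 also lost it after scaling to the library total (adjusted p = 0.066 and 0.092). In this contrast 8 of 10 oligodendrocyte markers were called in the same direction as Pcdh9. With the mean of the 10 markers as a covariate no protocadherin passed, and only 0.0101% of all genes did. Pcdh9 had 1.31 with an adjusted p of 0.34 in that fit.

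With trauma, no amygdala protocadherin passed between Sus-T and Res-T mice, and limma called 0% of all genes. At an unadjusted p under 0.05 there were 9 of 44 members and 1142 of all genes, and the median-ratio and quantile scalings called 1 and 2 of all genes and no member. Groups did not overlap in 3 members, against 5.75% of all genes. Pcdha7 was the furthest apart, at 1.84, 2.94, 2.07 and 13.3 in Res-T and at 15.5, 32.2, 22.1 and 17.6 in Sus-T (2.23 ± 0.57, adjusted p = 0.13). The others were Pcdhb7, at 6.26, 4.13, 12.02 and 11.7 against 17.2, 31.9, 22.0 and 12.04 (1.22 ± 0.45, adjusted p = 0.30), and Pcdhgb7, at 126.4, 37.3, 142.2 and 136.9 against 156.9, 183.7, 200.3 and 150.2 (0.80 ± 0.34, adjusted p = 0.37). Pcdh9 stood at -0.08 ± 0.17, with overlapping libraries. The C-type share of the gamma signal was 28.3%, 30.5%, 22.1% and 26.2% in Res-T and 36.7%, 30.0%, 32.4% and 28.2% in Sus-T, which overlapped.

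In the medial prefrontal cortex, Pcdh9 was again lower in Sus-T, but with trauma. The 4 Sus-T libraries were at 1305, 1678, 1374 and 2383 and the 3 Res-T libraries at 3918, 4928 and 3987. The groups did not overlap, and the gene fell 2.60-fold (log2 -1.38 ± 0.31, limma adjusted p = 0.0067). Pcdhga6, a gamma-A gene, rose 3.85-fold (log2 1.95 ± 0.48, adjusted p = 0.010), with 35.8, 27.2 and 58.1 in Res-T and 248.1, 75.3, 179.6 and 153.7 in Sus-T. These were 2 of 25 protocadherins, against 23% of all genes called, 14% higher and 8.93% lower, and 5 members did not overlap, against 40.7% of all genes. Both calls were kept with each library left out in turn. In the amygdala, fitted on other libraries, Pcdhga6 had 0.54 ± 0.25 with trauma (adjusted p = 0.41) and -0.48 ± 0.32 without trauma. In the cortex without trauma it had 0.90 ± 0.54 (adjusted p = 0.57). None of these passed.

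Of the other cortical clustered genes none passed with trauma. Of the 11 gamma genes, which all belong to gamma-A and gamma-B, 9 had a negative change, with a median of -0.38 against 0.15 over all genes, and median-ratio or quantile scaling made it 10. Pcdhga11 was at 251.4, 333.5 and 233.6 in Res-T and at 253.8, 126.6, 88.4 and 158.4 in Sus-T (-0.88 ± 0.33, adjusted p = 0.065), and it passed after either of those scalings. The 6 beta genes had a median of 0.72, and Pcdhb22 came nearest to the threshold, at 14.0, 18.2 and 12.6 in Res-T and at 48.7, 23.9, 87.9 and 35.9 in Sus-T (1.51 ± 0.58, adjusted p = 0.068). Pcdha11 had 1.42 ± 0.85. When only the groups compared entered the fit, 6 protocadherins passed, with Pcdh15, Pcdh19, Pcdhb22 and Pcdhga11 beside the first 2, a share of the 25 members below the 32.8% of all genes called in that fit.

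The other 6 non-clustered genes of the cortex did not pass. Pcdh15, which links the hair bundles of inner ear cells and is also found in oligodendrocyte precursors, was at 215.7, 157.5 and 200.6 in Res-T and at 219.5, 508.6, 298.6 and 310.5 in Sus-T (0.75 ± 0.29, adjusted p = 0.070), and the groups did not overlap. Pcdh19 had 0.71 ± 0.32 (adjusted p = 0.12), also without overlap. Pcdh10 had 0.40 ± 0.29, Pcdh17 0.25 ± 0.26, Pcdh11x 0.05 ± 0.34 and Pcdh20 -0.05 ± 0.68.

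**Figure D4:**
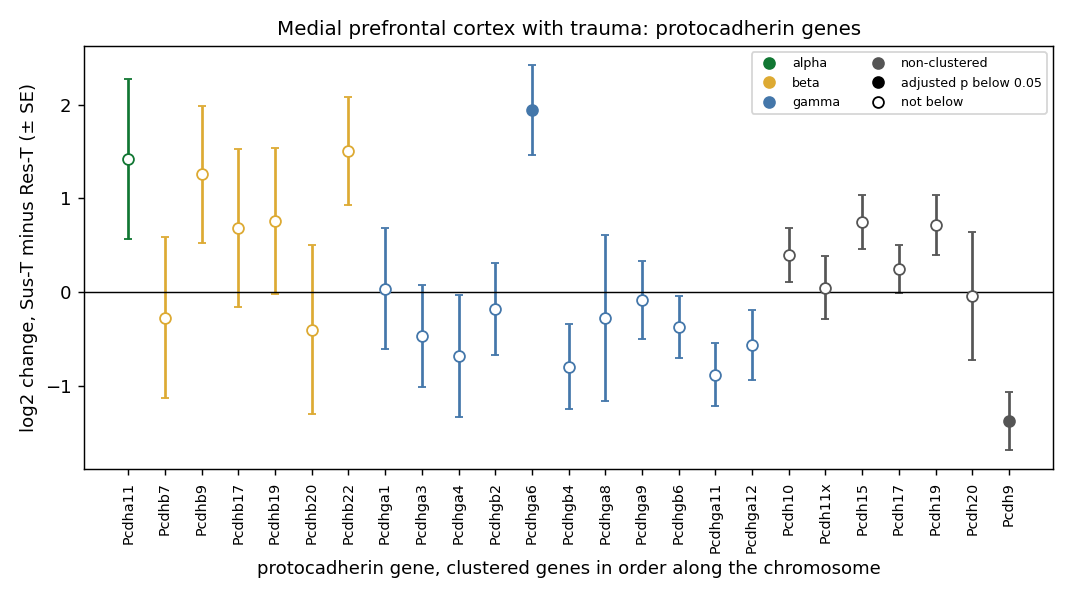
Log2 change, Sus-T minus Res-T with trauma, with its standard error, for the 25 protocadherins of the medial prefrontal cortex (4 and 3 libraries), clustered genes in order along the chromosome and then the non-clustered genes. Filled points, Pcdhga6 above 0 and Pcdh9 below it, had a limma adjusted p under 0.05.

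The oligodendrocyte markers moved with Pcdh9 in this comparison too. Of 7 measured markers 5 fell in Sus-T. The summed share of all 7 was 5.75%, 6.48% and 4.59% in Res-T and 2.25%, 2.496%, 2.42% and 3.95% in Sus-T, without overlap. The 1 measured precursor marker rose. With the mean of the 7 oligodendrocyte markers as a covariate no protocadherin and 0 of all genes passed, with -0.40 and an adjusted p of 0.43 for Pcdh9 and 1.11 and 0.39 for Pcdhga6. Across libraries of the cortex without trauma, the highest Pcdh9 value of Res-T, 3949, belonged to the library with the highest marker share, 7.48%, while the other 3 had 1754, 2083 and 2340 with shares of 3.36%, 3.23% and 2.79%. Among those other 3 the order was reversed, with the lowest Pcdh9 at the highest share. The 2 Sus-T libraries had 3257 and 1316 with shares of 3.22% and 2.196%. In the amygdala with trauma the order was mixed as well. There the Res-T libraries had 2874, 2805, 2991 and 3679 with shares of 5.06%, 4.76%, 4.41% and 4.01%, the highest Pcdh9 with the lowest share. The Sus-T libraries there had 2936, 3806, 2261 and 2811 with shares of 4.72%, 3.85%, 3.39% and 3.72%. The relation of Pcdh9 to the marker share within groups was not tested.

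**Figure D5:**
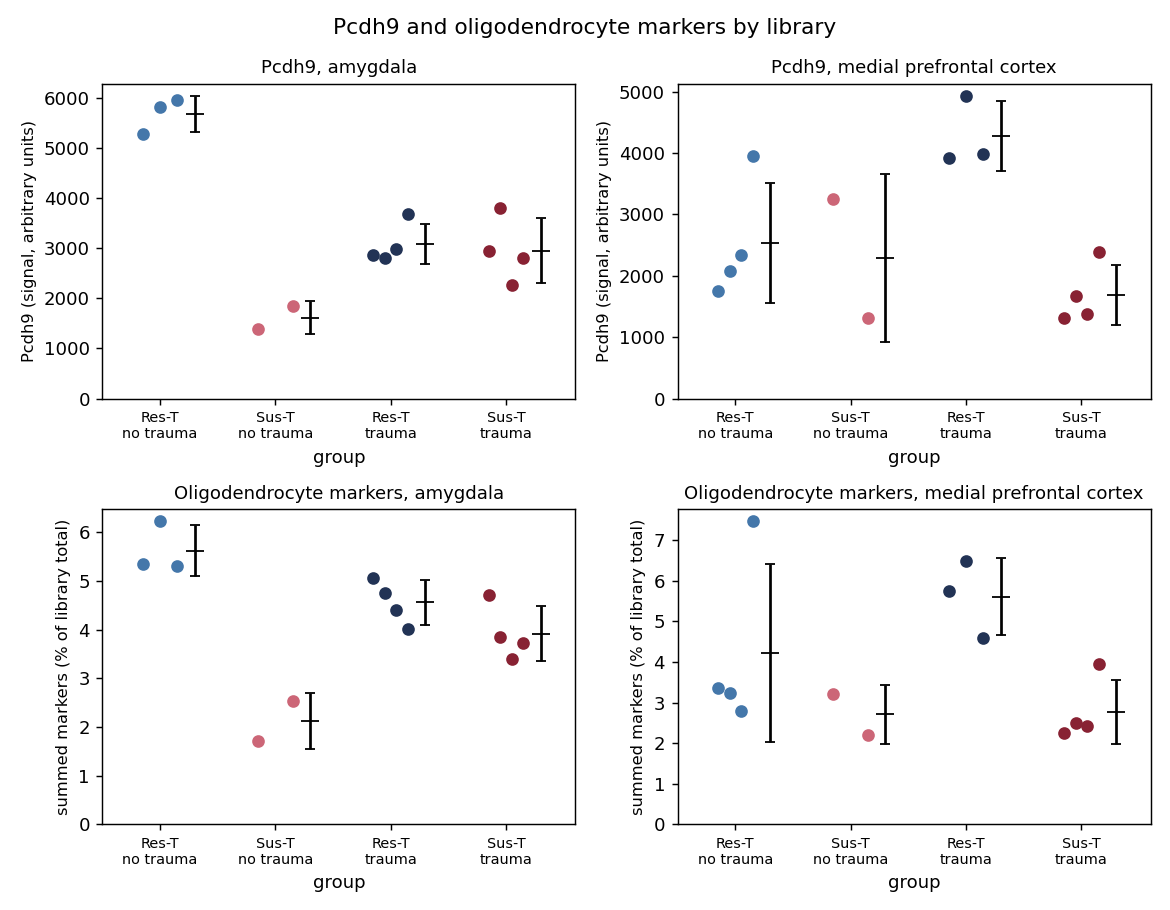
Pcdh9 in deposited units (top) and the summed oligodendrocyte markers as percent of the library total (bottom) in the amygdala (left) and the medial prefrontal cortex (right) by group. Points are libraries, with the mean and standard deviation beside them; in the amygdala without trauma and in the cortex with trauma the Sus-T libraries lie below the Res-T libraries in both measures.

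The remaining 4 cortical contrasts called 0% of all genes and no protocadherin. Between Sus-T and Res-T without trauma 1 of 25 members and 630 of all genes had an unadjusted p under 0.05, and 2 members did not overlap, against 14.9% of all genes. That member was Pcdhga12, at 150.6, 67.2, 113.9 and 109.3 in Res-T and at 34.1 and 56.4 in Sus-T (-1.25 ± 0.43, adjusted p = 0.36). Pcdh9 had -0.22 ± 0.35, with overlapping libraries.

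For trauma in Res-T, 5 members and 899 of all genes had an unadjusted p under 0.05, and 5 members did not overlap, against 13.1% of all genes. Pcdh15 had -0.86 ± 0.29 (adjusted p = 0.22), Pcdh9 0.82 ± 0.31 (adjusted p = 0.25) and Pcdh20 1.78 ± 0.68 (adjusted p = 0.26). Without replicate 4 of Res-T without trauma, the library with the highest oligodendrocyte share, Pcdh9 and Pcdh20 passed, 2 of 25 members against 9.67% of all genes in that fit. For trauma in Sus-T, 2 members and 91 of all genes had an unadjusted p under 0.05, Pcdhga12 with 1.18 ± 0.43 and Pcdhga9 with 1.08 ± 0.47. In that comparison 3 members did not overlap, against 8.03% of all genes. For the difference between the trauma effects, 2 members and 371 of all genes had an unadjusted p under 0.05, Pcdh15 with 1.10 ± 0.43 and Pcdh9 with -1.16 ± 0.47 (adjusted p = 0.77 for both).

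Genes that act with the protocadherins were taken from lists written from general knowledge. The share of all genes called was 27.4% in the amygdala without trauma (12.4% higher, 15% lower) and 23% in the cortex with trauma (14% higher, 8.93% lower). Of 10 cohesin and CTCF genes, all measured in the amygdala, 0 rose and 1 fell in Sus-T without trauma, a share below that of all genes. It was Smc1a, a core subunit of the cohesin ring, with 320.6 ± 5.01 (SD, n = 2) in Sus-T against 509.5 ± 37.6 (SD, n = 3) in Res-T (log2 -0.66 ± 0.19, adjusted p = 0.014). In the cortex with trauma 2 of 8 measured fell and none rose, a share near the 23% of all genes. They were Nipbl, the loader of cohesin (-0.67 ± 0.20, adjusted p = 0.023), and Smc3, another core subunit (-0.67 ± 0.24, adjusted p = 0.048). Of the genes for DNA and histone methylation at the arrays, 8 measured in each region, Dnmt3a, which sets new DNA methylation, fell in the amygdala (-0.74 ± 0.21, adjusted p = 0.013) and Ehmt2, a histone methyltransferase, rose there (0.79 ± 0.24, adjusted p = 0.022). In the cortex with trauma Ehmt2 rose 2.98-fold (1.58 ± 0.30, adjusted p = 0.0030) and Dnmt1, which maintains DNA methylation, 2.42-fold (1.27 ± 0.27, adjusted p = 0.0051).

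Kinases and actin regulators downstream of protocadherins numbered 14 measured in the amygdala, of which 2 rose and 1 fell in Sus-T without trauma, a share below the 27.4% of all genes. Ptk2b, the kinase PYK2 that binds the constant region of alpha and gamma protocadherins, was at 305.3 ± 9.92 (SD, n = 2) in Sus-T and 55.0 ± 8.48 (SD, n = 3) in Res-T, a rise of 5.51-fold (log2 2.46 ± 0.33, adjusted p = 6.6e-05), and it rose 2.11-fold with trauma in Res-T (adjusted p = 0.030). Abi2, a WAVE complex subunit, rose (0.79 ± 0.24, adjusted p = 0.020) and Wasf2, another, fell (-0.91 ± 0.28, adjusted p = 0.022). In the cortex with trauma 3 of 10 rose and none fell, against 23% of all genes called and 14% higher. They were the WAVE complex subunits Nckap1 (0.95 ± 0.18, adjusted p = 0.0030), Brk1 (1.17 ± 0.30, adjusted p = 0.012) and Abi2 (0.97 ± 0.27, adjusted p = 0.016). Of the proteases that cut protocadherins, 1 of 7 fell in the amygdala, the gamma-secretase subunit Aph1a (-0.90 ± 0.30, adjusted p = 0.034), and 1 of 2 rose in the cortex, the subunit Psenen (1.10 ± 0.35, adjusted p = 0.033).

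Among other cadherins, 4 of 14 measured rose and 3 fell in the amygdala without trauma, against 12.4% of all genes higher and 15% lower. Cdh20 and Cdh10, type II classical cadherins, fell by 1.73 and 1.21 on the log2 scale (adjusted p = 0.00067 and 0.0014), and Clstn3, a synaptic calsyntenin, rose 6.27-fold (2.65 ± 0.57, adjusted p = 0.0024). Cdh20 and Cdh10 were also called for the difference between the trauma effects (1.55 ± 0.40 and 1.13 ± 0.31, adjusted p = 0.029 and 0.034). With trauma in Res-T, Cdh10 fell (-0.85 ± 0.20, adjusted p = 0.021). In the cortex with trauma 5 of 14 rose and 3 fell, against 14% of all genes higher and 8.93% lower. Among them were Cdh13, a cadherin without a transmembrane part, up 8.42-fold (3.07 ± 0.51, adjusted p = 0.0017), Clstn1 up 3.06-fold (1.61 ± 0.26, adjusted p = 0.0017) and Cdh19 down 2.08-fold (-1.06 ± 0.25, adjusted p = 0.0088). Catenins tie classical cadherins but not protocadherins to actin. Of 6 measured in the amygdala 2 rose and 1 fell without trauma, and 1 of 2 rose in the cortex with trauma. Ctnnb1 rose in the amygdala without trauma (1.203 ± 0.18, adjusted p = 0.00016), with trauma in Res-T (0.68 ± 0.15, adjusted p = 0.016) and in the cortex with trauma (0.99 ± 0.22, adjusted p = 0.0066). It was also called for the difference between the trauma effects in the amygdala (-0.82 ± 0.23, adjusted p = 0.041). Ctnnd2 rose (1.58 ± 0.35, adjusted p = 0.0031) and Jup fell (-0.66 ± 0.21, adjusted p = 0.028) in the amygdala without trauma.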

How the data were processed

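Sorted Thy1-YFP neurons of 2 regions were profiled by RNA sequencing. Per the submitters' processing notes, bcl2fastq 2.20 and Salmon 1.2 were used with build GRCm38.p6. The values deposited by the authors were taken to be a signal with arbitrary units, and the normalization behind them is not given in the sources used here. A total of 0 columns belonged to no sample of the series. Identifiers without version were matched to GENCODE symbols, which named 9871 of 9872 amygdala genes and 6080 of 6080 cortical genes. The members and gene lists were chosen with earlier results of these data known.

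Values were analysed as log2(value + 1). A minimum mean of 1 removed 0 genes. For each region limma 3.58.1 (R 4.3.3) fitted 1 model of the 4 groups, moderated with trend and robust options, with 9 residual degrees of freedom. The plan foresaw a count test for counts, and limma was used because the values were a signal. All p-values are two-sided, and adjustment was by the Benjamini-Hochberg method across the whole table of a region, separately for each contrast, with 0.05 as the threshold. Fold changes are on the log2(value + 1) scale and understate the change of low genes. Errors after ± are standard errors of log2 changes unless marked SD. The 5 contrasts in a region were Sus-T minus Res-T without and with trauma, with minus without trauma in Res-T and likewise in Sus-T, and the difference of those trauma effects. Regions were not tested against each other, since their tables may have been normalized separately. The fit was tried on simulated data with known changes, only for trauma in Sus-T and with independent noise. The simulation held no missing dimensions or shared animals, so it cannot show if the p-values given here hold.

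All measured protocadherins were eligible to be named, and of each related list the called genes with the smallest p, up to 3 in a contrast. Alternatives were median-ratio and quantile scaling, a mean of at least 10, no filter, a pseudocount of 8, moderation without trend, only the groups compared, the replicate number as a block, and leaving out each library. An oligodendrocyte covariate and scaling to the library total were added after seeing the data. Replicate numbers are not stated to pair libraries, and correlations of same-numbered libraries lay between -0.446 and 0.159 (amygdala) and between -0.395 and 0.346 (cortex), so no block was used.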

Additional observations from a re-analysis of the deposited data

Results flagged for a closer look

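The trauma effect in the amygdala differed between Sus-T and Res-T, by the test of the difference itself, in Pcdh9 (1.75), Pcdhga5 (1.59) and Pcdhgb4 (1.30). These are differences of log2 changes, with limma adjusted p of 0.0033, 0.033 and 0.041. The 3 of 44 members were near the 6.74% of all genes called. After scaling to the library total, and with the replicate number as a block, Pcdh9 kept the call and the other two lost it. With the mean of the oligodendrocyte markers as a covariate all 3 lost it, and only 0.0101% of all genes were called.

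In 5 groups of 4 libraries a single library stood far from the others. In the amygdala of Res-T with trauma, Pcdha7 was at 13.32 in replicate 4 against 1.84, 2.07 and 2.94 in the others, Pcdhga11 was at 219.3 in the same library against 147.5, 150.8 and 153.8, and Pcdhgb7 was at 37.33 in replicate 2 against 126.4, 136.9 and 142.2. In the amygdala of Sus-T with trauma, Pcdhgb1 was at 121.1 in replicate 2 against 83.6, 86.0 and 88.0. In the cortex of Res-T without trauma, Pcdhb17 was at 176.6 in replicate 2 against 25.6, 29.6 and 31.4. The rule was applied to 88 groups of 4 values in the amygdala and 50 in the cortex, and chance marks about 1 in 20 of them.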

How the results depend on the processing

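Counts of called protocadherins kept within 1.5 times under most settings, where a count of 0 that stayed at 0 was taken as kept. For the difference of the trauma effects in the amygdala the count left that range in many of the fits without 1 library. For Sus-T against Res-T in the amygdala without trauma the count was 9 and ran from 5 to 7 when 1 library was left out (5 without replicate 2 of Res-T), with 0 higher and 7 lower without replicate 3 of Sus-T and 4 higher and 2 lower without replicate 1 of Sus-T. It was 0 with the mean of the oligodendrocyte markers as a covariate, where Pcdhga7 changed sign to 0.049 (adjusted p = 0.98). For trauma in Res-T in the amygdala the count of 1 became 0 after quantile normalization, 0 with the covariate and 2 after scaling to the library total, with Pcdh19 added, and it ran from 0 to 2 with 1 library left out. For trauma in Sus-T the count of 0 ran from 0 to 3. For the difference of the trauma effects the count of 3 became 0 with the covariate and 1 after scaling to the library total, and ran from 1 to 4. In the cortex with trauma the count of 2 became 6 when only the groups compared were fitted and 0 with the covariate, and ran from 2 to 4, with 4 without replicate 1 of Sus-T, where Pcdh15 and Pcdhga11 joined. For cortical trauma in Res-T the count of 0 ran from 0 to 2. The share of all genes called moved as well. With the covariate it went from 27.4% to 0.395% in the amygdala without trauma, and from 6.74% to 0.0101% for the difference of the trauma effects. With 1 library left out it ran from 1.02% to 7.17% for trauma in Res-T in the amygdala, against 6.18%. In the cortex with trauma it ran from 10.3% to 19.1%, against 23%. In the 3 pairs of groups where the covariate lost calls, the oligodendrocyte share did not overlap between the groups. The cause of the other changes was not tested. Where a lone library was left in a group, it was assumed to vary like the others.

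With the replicate number as a block the count for the difference of the trauma effects in the amygdala was 1, since Pcdhga5 and Pcdhgb4 were lost. The same block exchanged Pcdhga7 for Pcdhga8 in the amygdala without trauma and changed no other call of a protocadherin. Same-numbered libraries did not deviate together throughout, so the numbers were not taken as pairs.

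Over all called genes and settings, 189 values kept direction and call, 62 kept the direction without the call and 1 changed sign. The 189 include the setting without a filter, which repeated the main fit because the filter removed 0 genes, so its values could not change. Scaling to the library total moved the median log2 change of all genes by 0.19 in the amygdala without trauma, by 0.14 for trauma in Res-T and by -0.23 for the difference of the trauma effects. Median-ratio and quantile scaling moved it by -0.13 and -0.16 in the cortex with trauma. Among all called genes, the share higher was 53.4% for trauma in Res-T and 79.6% after scaling to the library total, 45.2% and 61.5% in the amygdala without trauma, 70.7% and 39.9% for the difference of the trauma effects, and 61.1% in the cortex with trauma against 49.6% after median-ratio scaling. The depth of the libraries is unknown. The dimensions missing from the deposited values, counted on logs after 1 was taken off, may make the p-values too small.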
